A study of Mus musculus with 12 samples.

Results

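The genes described here are 10 regulators of G-protein signalling: Rgs2, Rgs3, Rgs4, Rgs7, Rgs8, Rgs10, Rgs12, Rgs14, Rgs17 and Rgs19. They were chosen by gene symbol, and the rule asks for a row in both deposited count tables, 1 for the libraries labelled Cre+ with 9112 genes and 1 for the libraries labelled Cre- with 14177 genes. Of the 10 symbols, 7 had a row in both tables (Rgs3, Rgs4, Rgs7, Rgs8, Rgs10, Rgs17 and Rgs19). Rgs2 and Rgs12 had a row in the Cre- table only, and no value of Rgs14 was analysed here. A row in the Cre+ table required at least 5 reads in every library of that table, so that being present at a measurable level was part of the choice. The family was also selected on the pull-down against input values of these same libraries, which had already been computed. Each fold change and false discovery rate (FDR) below is therefore a description of these libraries.

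The study asked which mRNAs were bound to ribosomes in cultured mouse proprioceptive neurons, the sensory neurons that report muscle stretch. All mice were homozygous for the RiboTag allele Rpl22-HA, whose haemagglutinin (HA) tag on a ribosomal protein appears only after Cre recombination, and they either carried Runx3-Cre (Cre+) or lacked it (Cre-). Dorsal root ganglion neurons of adult males aged 3 to 6 months were density-purified, pooled from 5 mice per sample and grown for 24 h. That age is from the labels, and the study's methods give a younger range for its RNA-seq mice. RNA was sequenced from the HA pull-down and from the input taken before it, with 3 libraries for each of the groups Cre+ pull-down, Cre+ input, Cre- pull-down and Cre- input. Nothing says which pull-down shared its mice with which input, and the p-values measure the spread between these pools.

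Total counts per library were 8886308 to 11457315 in Cre+ pull-downs, 9957913 to 13941113 in Cre+ inputs, 14861795 to 18633365 in Cre- pull-downs and 9403767 to 12181960 in Cre- inputs. The driver gene Runx3 was enriched where the labels give no Cre. It rose 3.52 ± 0.43 (log2 ± SE, edgeR FDR = 0.000236) in the pull-downs labelled Cre-, and changed by 1.55 ± 0.87 (FDR = 0.309, not called) in those labelled Cre+. The difference of both enrichments was -1.93 ± 0.996 (Cre+ minus Cre-, FDR = 0.302) and was not called. Of the proprioceptor markers, 7 of 8 were enriched in the pull-downs labelled Cre- and 1 of 7 in those labelled Cre+. By the test of the difference 2 of 7 were lower for Cre+, Spp1 (-3.59, FDR = 0.0026) and Etv1 (-2.41, FDR = 0.0156). The groups are therefore named by their label throughout, as the libraries labelled Cre+ and the libraries labelled Cre-. Whether the labels were exchanged was not tested. Labels exchanged for pull-downs and inputs together would turn the sign of each Cre+ minus Cre- value below. Labels exchanged for the pull-downs alone would leave the input differences as they are. Each fold change within a label would then set a pull-down against the input of the other genotype. The study reported significant overlap of enriched genes between Runx3-Cre+ cultures and Runx3-Cre+ ganglia, and poorer consistency between Cre- cultures and those ganglia. Replicate 1 stood apart from the other libraries of its group in the Cre+ pull-downs (chi-square per gene 318 and 353, against 92.6 between the others), in the Cre+ inputs (103 and 105, against 17.8), in the Cre- pull-downs (82.9 and 74.2, against 27.4) and less so in the Cre- inputs (26.8 and 29.9, against 13.2).

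RGS proteins end G-protein signals. A receptor loads the alpha subunit with GTP, alpha and beta-gamma then act on enzymes and channels, and the RGS domain speeds up GTP hydrolysis on alpha, so that the complex closes again. In sensory neurons these proteins limit signalling from opioid receptors and other receptors coupled to Gi. The members fall into the R4 group (Rgs2, Rgs3, Rgs4, Rgs8) and the R7 group (Rgs7), which works bound to the beta subunit Gnb5. The others belong to the R12 group (Rgs10, Rgs12, Rgs14) and the RZ group with a cysteine string (Rgs17, Rgs19).

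For some R4 proteins the start of the coding sequence matters, because a cysteine after the initiator methionine marks the protein for rapid breakdown. Shown here are the coding starts of the 3 RGS genes with this codon and, beside them, of the other RGS genes that were called in a pull-down. Each line gives the first 30 coding bases of the GENCODE transcript that matched the deposited RefSeq identifier (GRCm38), 5′ to 3′, and capitals mark ATGTGC or ATGTGT, a methionine codon followed by a cysteine codon.
Rgs4: ATGTGCaaaggacttgcaggtctgccggct
Rgs5: ATGTGTaagggactggcagctctgccgcac
Rgs16: ATGTGCcgcaccctagccaccttccccaac
Rgs2: atgcaaagtgccatgttcctggctgtccag
Rgs3: atgaaccgcttcaatgggctctgcaaagtg
Rgs10: atgttcacccgcgccgtgagccgactgagc
Rgs9: atgacgatccgacaccaaggccagcagtac
They lie at chr1:169747494-169747523 (minus strand) for Rgs4, chr1:169655578-169655607 (plus) for Rgs5, chr1:153740469-153740498 (plus) for Rgs16, chr1:144004089-144004118 (minus) for Rgs2, chr4:62619734-62619763 (plus) for Rgs3, chr7:128418085-128418114 (minus) for Rgs10 and chr11:109297965-109297994 (minus) for Rgs9. Among 11717 genes of the tables with a coding start, 89 (0.760%) began with either of these letter pairs. Of the 9 members with a matched coding start, only Rgs4 did, and of the 6 other RGS genes only Rgs5 and Rgs16 did.

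Reads per library were scaled to normalized counts (CPM, counts per 1000000 reads) by the trimmed mean of M-values (TMM). Pull-down was set against input within each label by the quasi-likelihood test of edgeR, with FDR over all genes tested. A gene was called at FDR below 0.1 and a change of at least 2-fold. Over all genes, 422 of 8947 (4.72%) were called enriched and 196 (2.19%) depleted in the libraries labelled Cre+, and 693 of 11526 (6.01%) enriched and 672 (5.83%) depleted in those labelled Cre-. These splits moved with the scaling and with single libraries. They were 249 enriched and 266 depleted by upper quartile and 192 and 699 by library size alone for Cre+, and 429 and 1238 by library size alone for Cre-. For Cre+ they were 7 and 0 without input replicate 1, 59 and 15 without input replicate 2, 4 and 0 without input replicate 3, 803 and 540 without pull-down replicate 1, 654 and 354 without pull-down replicate 2 and 320 and 116 without pull-down replicate 3. For Cre- they were 817 and 1060 without pull-down replicate 1, and the other libraries moved them by less than 1.5 times. Library size alone also moved the median log2 fold change of all genes from 0.08 to -0.36 (Cre+) and from -0.04 to -0.27 (Cre-).

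Against that background, 0 of 7 members tested were enriched and 1, Rgs10, was depleted in the libraries labelled Cre+. In the libraries labelled Cre-, 1 of 9 members was enriched (Rgs2) and 3 were depleted (Rgs3, Rgs4 and Rgs10). The median log2 fold change was -0.27 over the 7 members and 0.08 over all genes for Cre+, and -0.66 over the 9 members and -0.04 over all genes for Cre-. At an unadjusted p under 0.05 (edgeR) stood 2 of the 7 members for Cre+ and 4 of the 9 for Cre-. Over all genes, 2109 of 8947 stood there for Cre+ and 3576 of 11526 for Cre-. DESeq2 also called 0 members enriched for Cre+. The member fold changes ran from -2.38 to 0.79 and from -1.68 to 2.10.

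**Figure D1:**
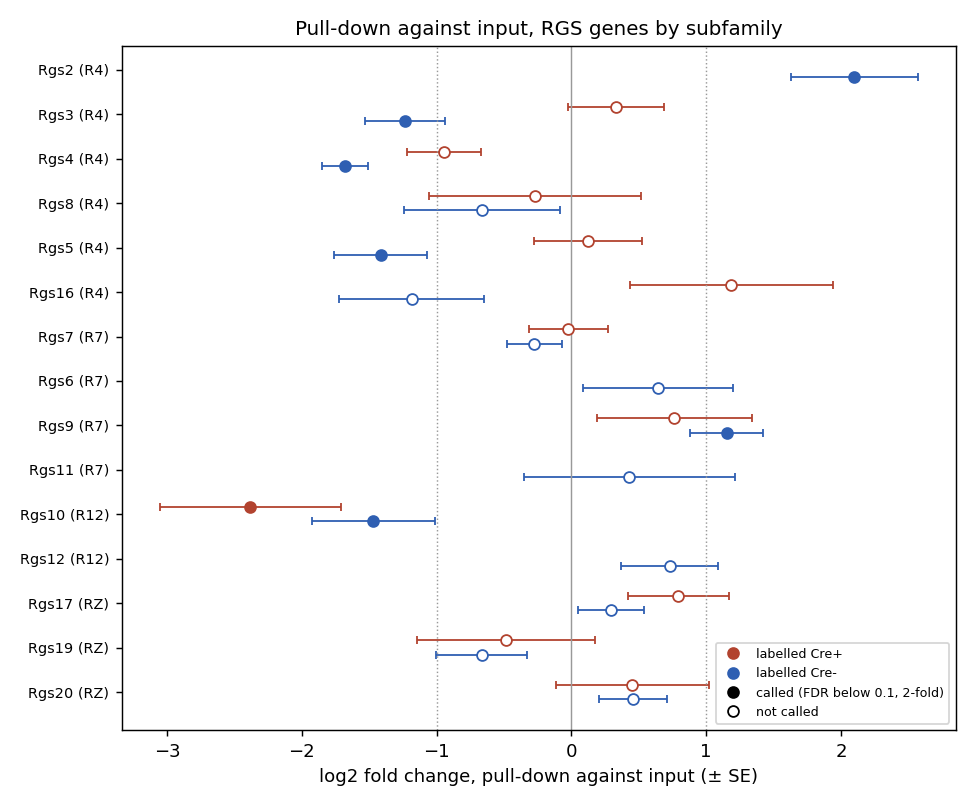
Log2 fold change of pull-down against input (± SE, n = 3 libraries per group) for RGS genes, ordered by subfamily, in the libraries labelled Cre+ (red) and Cre- (blue); filled points were called at FDR below 0.1 and 2-fold, and dotted lines mark 2-fold. Rgs10 was called depleted in both, Rgs3, Rgs4 and Rgs5 in the Cre- libraries, and Rgs2 and Rgs9 enriched in the Cre- libraries.

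Rgs2 encodes an R4 protein with a preference for Gq, and it lies at chr1:143999338-144004149. It could be read only in the libraries labelled Cre-. There it measured 14.5, 4.87 and 18.0 normalized counts in the inputs and 31.6, 54.3 and 74.3 in the pull-downs. Every pull-down lay above every input. The log2 fold change was 2.10 ± 0.47 (edgeR FDR = 0.0140), a ratio of the means of 4.29. No fold of Rgs2 was measured in the Cre+ libraries, and nothing can be said of a difference between labels.

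Rgs3, an R4 gene at chr4:62559835-62703019 whose product acts on Gi and Gq, was depleted under 1 label and not called under the other. In the libraries labelled Cre- it stood at 78.3, 65.9 and 50.9 normalized counts in the inputs and at 38.2, 28.3 and 16.2 in the pull-downs, and every pull-down lay below every input. The log2 fold change was -1.24 ± 0.30 (edgeR FDR = 0.0140). In the libraries labelled Cre+ it measured 58.9, 59.0 and 54.7 in the inputs and 65.5, 74.5 and 77.0 in the pull-downs, and here every pull-down lay above every input. That fold change, 0.33 ± 0.36 (FDR = 0.601), was not called, and it was -0.11 when scaled by library size alone. Without Cre- pull-down replicate 3, which held the lowest value, the Cre- change was -0.96 (FDR = 0.0348) and fell short of 2-fold.

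Rgs4, at chr1:169741477-169747642, was the most abundant member per length of transcript in every group. Its product acts on Gi, Go and Gq and is known from neurons of brain and ganglia. Inputs labelled Cre+ held 1593, 1944 and 1870 normalized counts and pull-downs 616, 1165 and 1029. Inputs labelled Cre- held 1502, 1615 and 1983 and pull-downs 608, 551 and 435. Under both labels each pull-down lay below each input. The log2 fold change was -1.68 ± 0.17 (edgeR FDR = 7.4e-05) for Cre-, where Rgs4 was already known to be among the genes with the smallest FDR, so this value is a description only. For Cre+ it was -0.94 ± 0.28 (FDR = 0.0991), under the threshold for the FDR but short of 2-fold. Scaled by library size alone, the Cre+ change was -1.36, and without Cre+ pull-down replicate 2 it was -1.11, and both values passed.

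Rgs8, the last of the R4 members and a gene known from Purkinje cells (chr1:153652959-153697669), was near the lower limit of measurement. It had 1.44 to 14.2 normalized counts in the 12 libraries, with the lowest value in Cre+ pull-down replicate 1 and the highest in Cre- input replicate 1. The groups overlapped under both labels, with log2 fold changes of -0.27 ± 0.79 (edgeR FDR = 0.873) and -0.66 ± 0.58 (FDR = 0.476). The sign for Cre+ turned to 0.26 without Cre+ pull-down replicate 1. In its transcript, 70 bases (0.826%) also belong to a gene model on the opposite strand, and counting is not stated to use strand.

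**Figure D2:**
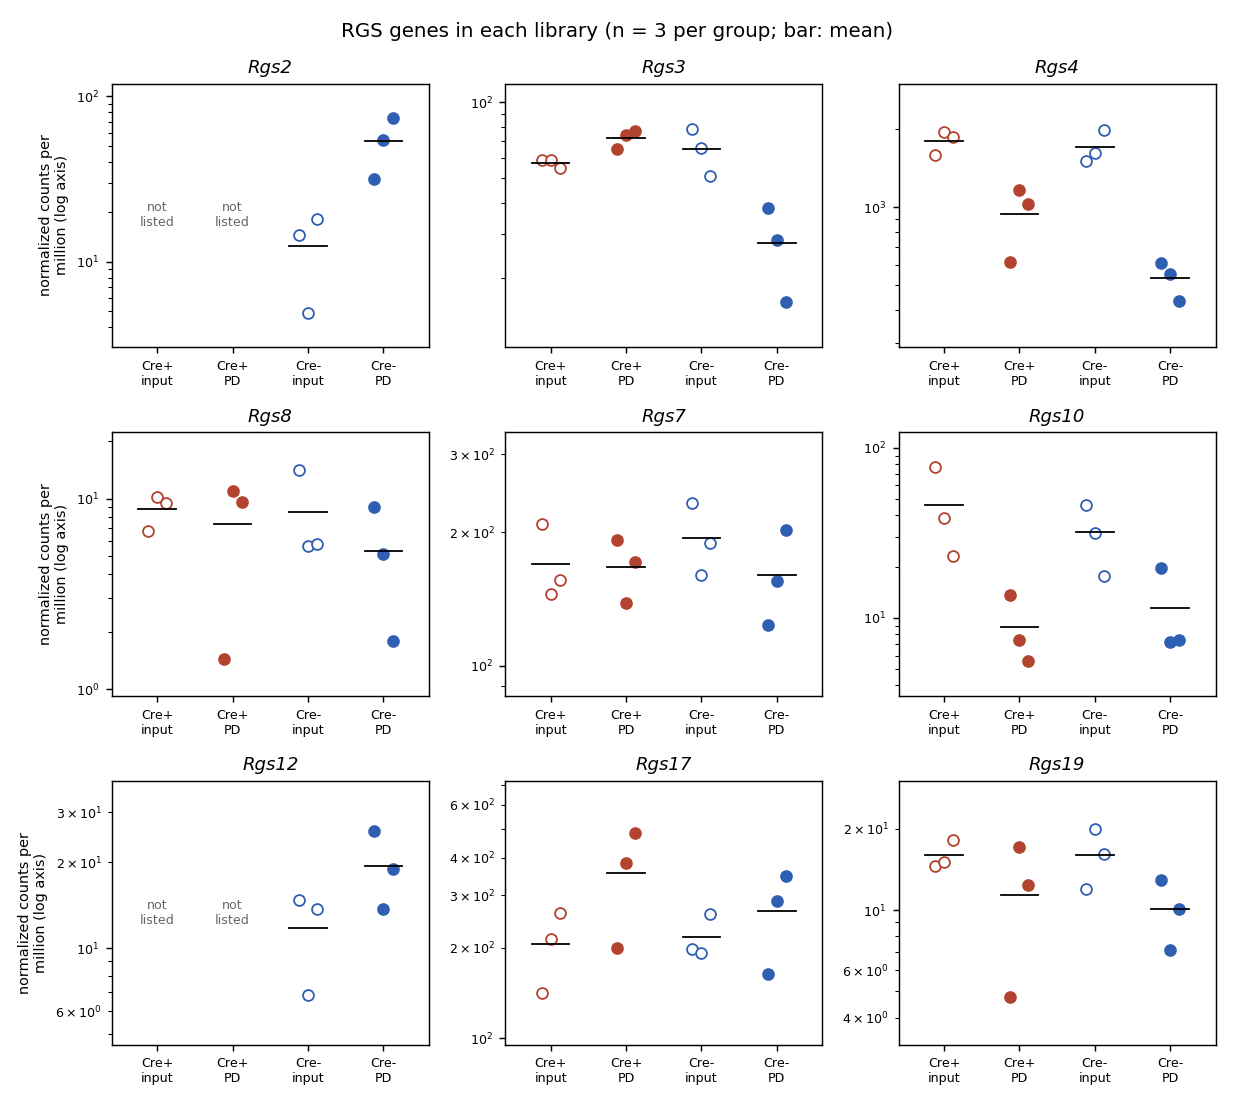
Normalized counts (CPM, log axis, scale set for each gene) of the 9 members with values, in the 3 libraries of each group, with inputs open, pull-downs (PD) filled and a bar at the mean. The pull-downs of Rgs4 lay below all inputs under both labels, those of Rgs3 lay above the inputs for Cre+ and below them for Cre-, and Rgs2 and Rgs12 were not listed for Cre+.

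Rgs10 was the only member called under both labels. It lies at chr7:128373621-128419506 and encodes a small protein, little more than an RGS domain, that acts on Gi and is abundant in microglia and macrophages as well as in neurons. Inputs labelled Cre+ held 77.0, 38.4 and 23.0 normalized counts and pull-downs 13.5, 7.44 and 5.54. The inputs varied among themselves by more than 3-fold, but no pull-down reached the lowest of them. Inputs labelled Cre- held 46.3, 31.6 and 17.5 and pull-downs 19.6, 7.25 and 7.37, and the highest pull-down lay above the lowest input. The log2 fold changes were -2.38 ± 0.67 (edgeR FDR = 0.0922) and -1.47 ± 0.46 (FDR = 0.0478). The Cre+ call was lost on leaving out any of the 3 Cre+ inputs or Cre+ pull-down replicates 2 or 3 (FDR 0.132 to 0.375), and the Cre- call on leaving out Cre- input replicates 1 or 2 or Cre- pull-down replicates 2 or 3 (FDR 0.116 to 0.173). The Cre- call was also lost in the fit of all 12 libraries (-1.50, FDR = 0.210), and the Cre+ call at FDR below 0.05. The sign was negative in all of these.

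Macrophage markers were measured beside Rgs10, since in bulk RNA fewer cells of a type and less RNA per cell cannot be told apart. For Cre+, 2 of 7 markers were listed (Cd68 and Csf1r), with a summed level of 25.8 to 68.2 normalized counts in the inputs and 4.85 to 112 in the pull-downs, and neither was called. For Cre-, 6 of 7 were listed, 4 were tested and 1, Itgam, was enriched (1.28), while the sum was 60.6 to 133 in the inputs and 64.8 to 89.9 in the pull-downs. Schwann and satellite glia markers summed to 2438 to 3736 in Cre+ inputs and 1694 to 2286 in Cre+ pull-downs. For Cre- the sums were 2807 to 4325 and 1277 to 1712, and 2 of 10 tested were depleted. Most of the Cre- sum was Pmp22, with means of 2910 in inputs and 887 in pull-downs. Only 1 of the 10, S100b, had a positive change for Cre- (0.69, edgeR FDR = 0.0114, all pull-downs above all inputs), short of 2-fold. For Cre+ S100b was at -0.99 (FDR = 0.117, not called), and the difference, Cre+ minus Cre-, was called (-1.65, FDR = 0.0364). All 12 neuronal markers were listed under both labels, with 3 depleted and 0 enriched for Cre+ (Tubb3 -1.19, Uchl1 -1.85 and Stmn2 -1.21) and 3 enriched and 0 depleted for Cre- (Snap25 1.17, Nefm 1.29 and Nefh 1.35). The signs were mixed under both labels. For Cre+, 6 of 12 were positive, and Nefm (0.47) and Nefh (0.56), not called, had all pull-downs above all inputs. For Cre-, 8 of 12 were positive, while Rbfox3 stood at -0.76 (edgeR FDR = 0.0045, all pull-downs below all inputs). The summed level of the neuronal markers was 22565 to 29772 in Cre+ inputs and 23041 to 25511 in Cre+ pull-downs. For Cre- it was 25929 to 30726 and 50601 to 58250, and the mean levels of Snap25, Nefl and Nefm in the Cre- pull-downs were 15663, 15983 and 17202. The part of these cells in the RGS values was not tested.

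Rgs12, the largest member by coding length (4143 bases), joins the RGS domain with PDZ, Ras-binding and GoLoco domains and lies at chr5:34948929-35039642. Only the libraries labelled Cre- gave values, with 14.7, 6.85 and 13.7 normalized counts in the inputs and 25.7, 13.8 and 18.9 in the pull-downs. The groups overlapped narrowly, since the lowest pull-down lay between the upper inputs, and the log2 fold change of 0.73 ± 0.36 (edgeR FDR = 0.190) was not called. In its transcript, 467 bases (8.53%) also belong to a gene model on the opposite strand.

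Rgs7, which works only as a dimer with Gnb5 (chr1:175059076-175492862), was not called under either label. It measured 145 to 209 normalized counts in Cre+ inputs and 138 to 192 in Cre+ pull-downs, and 161 to 232 and 124 to 202 for Cre-. The log2 fold changes were -0.02 ± 0.29 (edgeR FDR = 0.970) and -0.27 ± 0.21 (FDR = 0.3998), and the groups overlapped. Its Cre+ value had no stable sign, turning to 0.15 without Cre+ input replicate 1.

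The RZ genes Rgs17 and Rgs19 have products that act on Gz and Gi. Rgs17 (chr10:5825663-5922412) held 141, 214 and 261 normalized counts in Cre+ inputs and 200, 385 and 484 in Cre+ pull-downs. Only the lowest pull-down, in replicate 1, fell within the inputs, and the log2 fold change was 0.79 ± 0.37 (edgeR FDR = 0.233). Without Cre+ pull-down replicate 1 it was 1.12 (FDR = 0.0497), which would be called. For Cre- the values were 198, 192 and 260 in inputs and 164, 287 and 347 in pull-downs, with overlap and a change of 0.30 ± 0.25 (FDR = 0.455). Rgs19 (chr2:181688419-181694537) ran from 4.77 to 18.1 for Cre+ and from 7.11 to 19.9 for Cre-. Its log2 fold changes were -0.48 ± 0.66 (FDR = 0.690) and -0.67 ± 0.34 (FDR = 0.204), neither called.

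Whether enrichment differed between the labels was tested as the interaction of fraction and label over all 12 libraries. Of 8954 genes, 391 (4.37%) differed in either direction, a count that ran from 43 (without Cre- input replicate 2) to 1407 (without Cre+ pull-down replicate 2) when 1 library was left out. Among the 7 members in both tables only Rgs3 did, with an enrichment 1.60 ± 0.47 higher (log2, Cre+ minus Cre-, edgeR FDR = 0.0982). This call sat at the threshold. It was lost by upper-quartile scaling (1.43, FDR = 0.146), by library size alone (1.36, FDR = 0.159) and on leaving out any of the 6 inputs or Cre- pull-down replicates 2 or 3 (1.33 to 1.75, FDR 0.165 to 0.222). For Rgs4 the difference was 0.77 ± 0.33 (FDR = 0.221), given as a description, and it was 1.01 (FDR = 0.0322) without Cre+ pull-down replicate 1. For Rgs10 it was -0.88 ± 0.82, for Rgs17 0.54 ± 0.49, for Rgs8 0.45 ± 1.04, for Rgs7 0.29 ± 0.35 and for Rgs19 0.22 ± 0.72, with FDR from 0.562 to 0.889. With these errors, a difference of 2-fold lay within 2 SE of the estimate for Rgs4, Rgs8, Rgs10, Rgs17 and Rgs19.

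The inputs gave no member that differed by label. Between Cre+ and Cre- inputs 0 of 8954 genes (0%) were called by edgeR and 0 by DESeq2, with 18 and 29 genes at an unadjusted p under 0.05 and no member among the 18. The member differences ran from -0.12 (Rgs7) to 0.61 (Rgs10, SE 0.58).

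Levels were compared between genes only per length, as normalized counts per kilobase of matched transcript. In Cre- inputs Rgs4 was highest with 578 ± 85.6 (SD, n = 3), followed by Rgs7 with 91.8 ± 17.1, Rgs10 with 36.1 ± 16.3, Rgs17 with 26.7 ± 4.69, Rgs3 with 16.7 ± 3.52, Rgs19 with 10.6 ± 2.63, Rgs2 with 4.12 ± 2.25, Rgs12 with 2.15 ± 0.781 and Rgs8 with 1.01 ± 0.581. The neighbours Rgs10 and Rgs17, Rgs3 and Rgs19, Rgs2 and Rgs12, and Rgs12 and Rgs8 overlapped between libraries. Cre+ inputs gave the same order for the 7 genes they hold, from 613 ± 62.8 for Rgs4 to 1.04 ± 0.210 for Rgs8, with overlap of Rgs7 with Rgs10 and of Rgs10 with Rgs17. In the pull-downs Rgs10 stood below Rgs17, at 10.0 ± 4.75 against 43.9 ± 17.7 for Cre+ and, with overlap, at 13.0 ± 8.09 against 32.8 ± 11.5 for Cre-. Rgs2 stood at 17.7 ± 7.07 in Cre- pull-downs, and Rgs4 remained highest in every library group, at 318 ± 97.2 and 181 ± 29.9.

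Pull-down values over all genes moved with transcript length, and this bears on the members because their transcripts run from 880 bases (Rgs10) to 8474 bases (Rgs8). For Cre+ the median log2 fold change was -1.26 for 310 genes with transcripts under 1000 bases, -0.71 for 1301 genes from 1000 to 2000 bases, -0.13 for 3160 genes from 2000 to 4000 bases and 0.60 for 3003 longer genes. For Cre- the same medians were -0.57, -0.30, -0.06 and 0.21. Rgs10, in the shortest class, lay below its class median under both labels, and 39 of the 310 genes of that class (12.6%) were called depleted for Cre+ and 98 of 590 (16.6%) for Cre-. Rgs4 (2941 bases) and Rgs3 (3888 bases) belong to the class from 2000 to 4000 bases, where 55 genes (1.74%) were depleted for Cre+ and 214 (5.32%) for Cre-, and Rgs2 (3021 bases) to the same class, where 209 (5.19%) were enriched for Cre-. Rgs8, at 8474 bases, and Rgs17, at 8107 bases, lay on opposite sides of the Cre+ median of their class. Lengths could be matched for 86.9% and 85.5% of the genes tested, and the part of length in the member values was not tested.

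**Figure D3:**
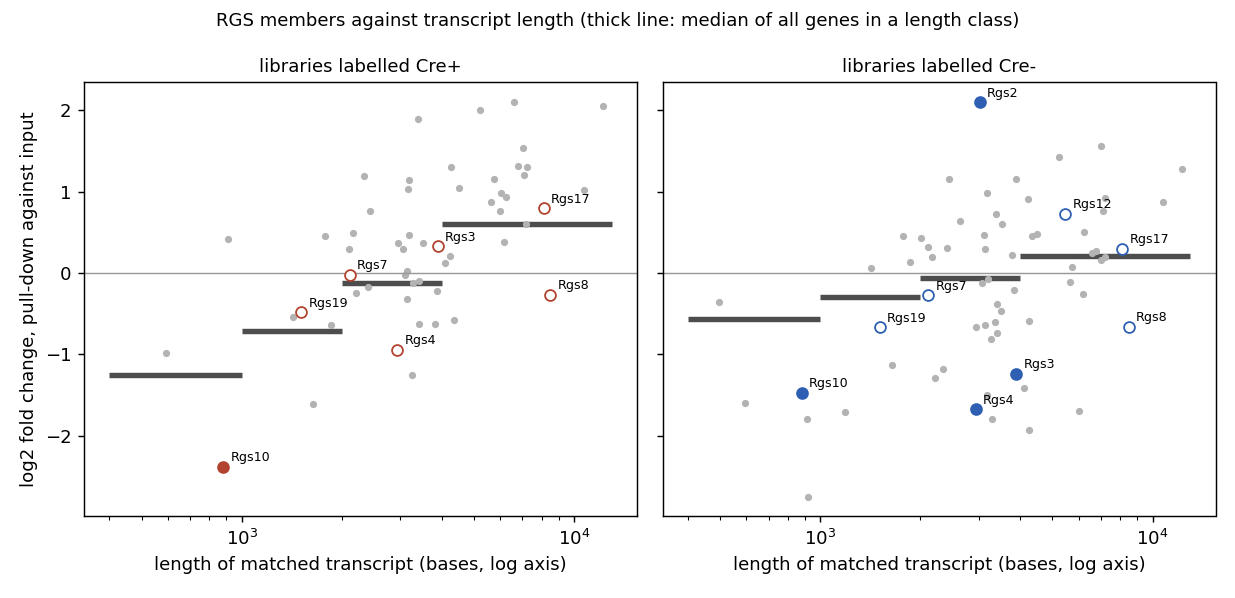
Log2 fold change of pull-down against input by length of the matched transcript (log axis) in the libraries labelled Cre+ (left) and Cre- (right); named points are the members, filled where called, grey points are genes of the pathway lists, and thick lines are medians of all genes tested with transcripts under 1000, 1000 to 2000, 2000 to 4000 and over 4000 bases. The medians climbed from -1.26 to 0.60 (Cre+) and from -0.57 to 0.21 (Cre-), and Rgs4 lay below the median of its class in both.

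Other RGS genes were counted from a list of 11, of which 4 were tested for Cre+ and 6 for Cre-. None of the 4 was called for Cre+ by edgeR, none had an unadjusted p under 0.05, and DESeq2 called 0. For Cre-, Rgs5 was depleted and Rgs9 enriched. The depleted count for Cre- was 1 to 2 on leaving out 1 library, and also 1 to 2 under the other settings. Rgs5, the R4 gene that also marks pericytes, held 70.1, 56.4 and 55.8 normalized counts in Cre- inputs and 38.0, 13.9 and 16.4 in pull-downs (-1.41 ± 0.34, edgeR FDR = 0.0160). For Cre+ it was 45.6, 53.7 and 63.4 against 60.3, 45.5 and 71.7, with full overlap (0.12 ± 0.40). Summed pericyte and smooth muscle markers were 10.9 to 14.7 in Cre- inputs and 0.968 to 31.6 in Cre- pull-downs, and none passed the filter for testing. Endothelial markers summed to 49.8 to 95.03 in Cre+ inputs and 115 to 515 in Cre+ pull-downs, where Flt1 of 4 tested was enriched (2.83), and to 68.8 to 93.9 and 20.5 to 142 for Cre-, where none of 4 was called by edgeR or had an unadjusted p under 0.05. The differences of their enrichments, 1.35 to 2.42 higher for Cre+, were not called. The part of such cells in Rgs5 was not tested.

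Rgs9, an R7 gene known from photoreceptors and striatum, measured 16.4, 12.3 and 10.9 normalized counts in Cre- inputs and 27.0, 30.6 and 30.2 in pull-downs, without overlap (1.15 ± 0.27, edgeR FDR = 0.0115). Scaled by library size alone, or in the fit of all 12 libraries, it was not called. For Cre+ its pull-downs also lay above all inputs, at 29.1, 20.8 and 25.6 against 9.17, 16.4 and 18.9, but its change of 0.76 ± 0.58 (FDR = 0.443) was not called. Rgs16 ran from 2.51 to 29.5 over the 12 libraries, and its changes of 1.19 ± 0.75 and -1.19 ± 0.54 were not called. The interaction was 2.40 ± 0.96 (FDR = 0.199) for Rgs16, 1.57 ± 0.54 (FDR = 0.148) for Rgs5 and -0.35 ± 0.57 for Rgs9. Of these other RGS genes, 0 were called higher for Cre+ in the main fit and 2 by DESeq2. The count was 1 without any single Cre+ pull-down and 2 without Cre- pull-down replicate 1. Of the 3 genes with the cysteine codon, Rgs4 and Rgs5 were depleted for Cre- and Rgs16 was not called, while Rgs3 and Rgs10, which lack it, were depleted for Cre- as well. For Cre+ none of the 3 was called.

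The list of R7 partners holds 5 genes, of which 3 were tested: Gnb5, the anchor Rgs7bp and the orphan receptor Gpr158. Rgs9bp and Gpr179 were listed for Cre- only and did not pass the filter. For Cre+ 1 of 3 was enriched, Rgs7bp, with 503 ± 85.1 (SD, n = 3) normalized counts in inputs and 1158 ± 171 in pull-downs (1.20 ± 0.25, edgeR FDR = 0.0462). For Cre- none of 3 was called by edgeR or DESeq2. There Rgs7bp, the 1 gene at an unadjusted p under 0.05, had an FDR of 0.00824 but a change of 0.76, short of 2-fold. Gnb5 had changes of 0.30 ± 0.64 and 0.32 ± 0.27.

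The alpha subunits, on which RGS proteins act, gave 1 of 12 enriched for Cre+ and 2 of 12 depleted for Cre-. The enriched gene was Gnal, which encodes the olfactory stimulatory subunit (1.15 ± 0.23, edgeR FDR = 0.0448). The depleted genes were Gnai2 (-1.30 ± 0.18, FDR = 0.000522) and Gna14 (-1.79 ± 0.23, FDR = 0.000278), an inhibitory and a Gq-type subunit. The medians were -0.04 for Cre+ and -0.32 for Cre-. The difference of both enrichments was called for 4 of 12 alpha subunits, all higher for Cre+: Gna14 (1.70, FDR = 0.0689), Gnal (1.11, FDR = 0.0689), Gnao1 (1.07, FDR = 0.0968) and Gnai2 (1.08, FDR = 0.0999). That count was 1 by upper quartile, 0 by library size alone and 0 to 4 on leaving out 1 library. Elsewhere in the pathway the difference was called for Gnb4 (2.49, FDR = 0.0689) of 9 beta and gamma subunits and Arhgef11 (1.09, FDR = 0.0689) of 12 other RGS-domain proteins. Leaving out 1 library gave 0 to 4 beta and gamma subunits and 0 to 3 RGS-domain proteins.

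Of the beta and gamma subunits, 1 of 9 was depleted for Cre+ (2.19% of all genes) and 8 of 12 for Cre- (5.83% of all genes). None was enriched. The Cre+ gene was Gng3, a neuronal gamma subunit (-1.61 ± 0.44, edgeR FDR = 0.0862), a call lost without any of the 3 Cre+ inputs or Cre+ pull-down replicate 3. For Cre- those with the smallest FDR were Gng3 (-1.13, FDR = 0.000465), Gng12 (-1.94, FDR = 0.000465), Gnb4 (-1.70, FDR = 0.00113) and Gng4 (-1.51, FDR = 0.00624). The median was -1.55 for Cre- and -0.33 for Cre+. Of the genes depleted for Cre-, Gng5 (593 bases), Gng8 (910) and Gng11 (919) lay under 1000 bases, where 16.6% of genes were depleted. Gng10 (1192) and Gng3 (1643) lay between 1000 and 2000 bases, where 9.5% were. Gng4 (3179), Gng12 (4248) and Gnb4 (5997) were longer. Mean pull-down levels of Gng5, Gng8, Gng10 and Gng11 were only 0.545 to 2.98 normalized counts. The part of length was not tested. The count for Cre- was 5 without Cre- input replicate 1. It was 3 in a fit of all 12 libraries, which tested the 9 genes of both tables.

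Other proteins with an RGS domain gave 2 of 12 enriched for Cre+ and 1 of 13 for Cre-. The Cre+ genes were Arhgef11 (1.32 ± 0.24, edgeR FDR = 0.0371) and Arhgef12 (1.02 ± 0.28, FDR = 0.0847), exchange factors that bind the G12 and G13 subunits. The Cre- gene was Akap10, an anchor of protein kinase A (1.15 ± 0.27, FDR = 0.0132). The GoLoco proteins had no call among 2 tested for Cre+ and 4 for Cre- in the main edgeR fits. At an unadjusted p under 0.05 stood 0 and 2 of them. DESeq2 called 1 enriched under each label. Some other edgeR fits gave a call as well. For Cre+, 1 was enriched when all 12 libraries were fitted together. For Cre-, 1 was enriched with replicate number as a block. The same count arose when either the first input or the third pull-down of that label was dropped. Of the effectors, 2 of 8 were enriched for Cre+ and 3 of 9 for Cre-. They were the calcium-stimulated adenylyl cyclase Adcy1 (2.05 and 1.28), the phospholipase Plcb4 (2.01 and 1.42) and, for Cre-, the adenylyl cyclase Adcy8 (1.56). Every pathway gene called enriched for Cre+ had a transcript over 4000 bases, the class with the highest median. They were Gnal (5736), Rgs7bp (7077), Arhgef11 (6776), Arhgef12 (10752), Adcy1 (12259) and Plcb4 (5217). All tested effectors belonged to that class as well. In it, 315 of 3003 genes (10.5%) were called enriched for Cre+ and 329 of 3212 (10.2%) for Cre-. The part of length in these values was not tested. For Cre+, leaving out 1 library at a time gave 0 to 1 enriched R7 partners, 0 to 1 alpha subunits, 0 to 2 of these RGS-domain proteins and 0 to 4 effectors. Other settings of scaling, filter, threshold or method gave 0 to 6 enriched effectors for Cre+ and 2 to 5 for Cre-.

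**Figure D4:**
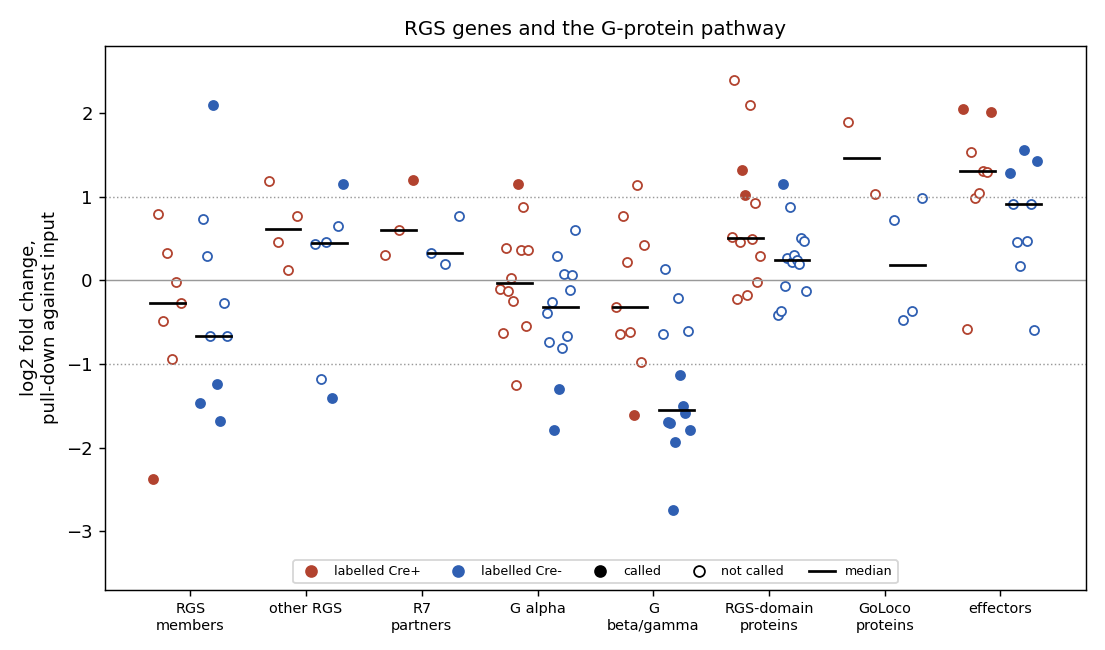
Log2 fold change of pull-down against input for every tested gene of the RGS members and of the G-protein pathway lists, in the libraries labelled Cre+ (red) and Cre- (blue), with called genes filled and a bar at the list's median. The beta and gamma subunits had a median of -1.55 for Cre-, with 8 of 12 called depleted, against 5.83% of all genes tested. The tested effectors, all with transcripts over 4000 bases, had medians of 1.30 for Cre+ and 0.91 for Cre-. The medians of all genes in that length class were 0.60 and 0.21.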

How the data were processed

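Ribosome-bound RNA and input RNA of 12 libraries were analysed from 2 deposited count tables, 1 per label. Per the labels and the study's methods, the authors made amplified libraries from very little RNA, called bases with CASAVA 1.8.2, aligned reads to mm10 with STAR at default parameters, counted uniquely mapped fragments per RefSeq gene with HTSeq and tested with edgeR; whether counting used strand is not given in the sources used here. The values used were the raw read counts per gene as deposited by the authors, and the authors' mean FPKM per gene, deposited in the same tables, served only as the filter. The tables also held 9 further value columns each, scaled counts and ratios of single libraries, which were not used, and columns of the authors' own fold changes, p-values and FDR, which were not used either.

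The columns of the Cre+ pull-down were put in their group by the sample descriptions, which name the table. Punctuation aside, those column names read like titles given to Cre- pull-down samples, so they were matched to no single sample and their replicate numbers are the column's own. Genes with a mean FPKM above 1 were kept. R 4.3.3 and edgeR 4.0.16 gave TMM factors and quasi-likelihood tests with robust estimation and Benjamini-Hochberg adjustment over all genes tested, called at FDR below 0.1 and 2-fold. The study's methods name edgeR's genewise negative binomial models with quantile-adjusted conditional maximum likelihood (qCML) and TMM. The exact test with qCML dispersion was an alternative here, as was DESeq2 1.42.0. The difference between labels was the interaction in 1 fit of all 12 libraries, over genes of both tables. The tests were run on simulated data first. SE is the log2 fold change divided by the root of its F statistic. With 3 libraries per group, the SE beside each value is the precision available.

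The members and the gene lists were chosen with earlier results of these data known. All 10 members, the called genes of each list with the smallest FDR (at most 4 per comparison) and Runx3 were to be named. Transcript lengths, exons and coding starts came from GENCODE M21 and gene positions from RefSeq, both on GRCm38, the build of mm10. Exons that overlap another gene on either strand were counted for each RGS gene, with no overlap for Rgs2, Rgs3, Rgs4, Rgs5, Rgs7, Rgs9, Rgs10, Rgs17, Rgs19 or Rgs20, and 236 bases (10.1%) for Rgs16. Figures were drawn with matplotlib 3.10.9.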

Additional observations from a re-analysis of the deposited data

Results flagged for a closer look

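Rgs3 drew attention because its enrichment differed between the libraries labelled Cre+ and those labelled Cre- by the test of the difference itself. The interaction was 1.60 ± 0.47 (log2, edgeR FDR = 0.0982), with all 3 pull-downs above all inputs for Cre+ and all 3 below all inputs for Cre-. The Cre+ change itself, 0.33 ± 0.36 (edgeR FDR = 0.601), was not called, and it was -0.11 by library size alone. The call of the interaction was lost under 11 of 20 alternatives, among them both other scalings and leaving out any input, with FDR up to 0.222.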

How the results depend on the processing

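The count of members enriched for Cre+ was 0 to 1 and depleted for Cre+ 0 to 1 when 1 library was left out, and the depleted count was 0 at FDR below 0.05, 2 without a fold limit and 2 with library size alone. For Cre- the depleted count was 1 to 3 on leaving out 1 library, and the enriched count was 0 in the fit of all 12 libraries, where Rgs2 is not tested and 2 members, Rgs3 and Rgs4, remained depleted while Rgs10 did not pass. The replicate block was fitted for Cre- only, where each column matches 1 numbered sample. Deviations of same-numbered libraries correlated at 0.07, 0.03 and 0.12. Each was the highest for its pull-down, a hint of pairing from the data, but only 1 of 3 was over 0.1, so the numbers were not taken as pairs. With the replicate block 704 genes were enriched and 792 depleted, against 693 and 672 without it, and 1 member was enriched and 3 depleted. No paired analysis was run for Cre+, because its pull-down columns, although numbered, could be matched to their group but not to single numbered samples. The count of members whose enrichment differed was 0 at FDR below 0.05, 0 with upper-quartile scaling and 0 with library size alone, and 0 to 2 on leaving out 1 library. Signs turned only for values that were not called. Rgs7 for Cre+ was 0.046 by DESeq2 and -0.12 to 0.15 on leaving out 1 library, above 0 without Cre+ pull-down replicate 2 (0.12) or Cre+ input replicate 1. Rgs3 for Cre+ was -0.11 with library size alone, and Rgs8 for Cre+ was -0.65 to 0.26 on leaving out 1 library, above 0 without Cre+ pull-down replicate 1. The difference ran from -0.20 (without Cre+ pull-down replicate 2) to 0.60 for Rgs19 and from -0.14 (without Cre- input replicate 1) to 1.06 for Rgs8. The causes were not tested. Over all genes, calls for Cre+ were 1085 enriched and 575 depleted by DESeq2, 794 and 485 by the exact test, 1250 and 948 in the fit of all 12 libraries and 139 and 26 at FDR below 0.05. For Cre- they were 270 and 175 in the fit of all 12 libraries and 1502 and 1284 without a fold limit. For the difference, 209 genes were higher and 182 lower for Cre+ in the main fit, and 612 and 425 by DESeq2. The balance turned to 85 higher and 205 lower by upper quartile, and to 72 and 275 by library size alone. Non-robust estimation, chosen after seeing the data, left every member call as it was. The standard errors of the members reached 0.79 within a label (Rgs8, Cre+) and 1.04 for the difference (Rgs8).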

Other observations

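Rgs6 and Rgs11, R7 genes listed for the libraries labelled Cre- only, were at the low end of the family. Rgs6 had 1.76, 3.14 and 3.94 normalized counts in the inputs and 2.62, 6.44 and 4.84 in the pull-downs (0.64 ± 0.56, edgeR FDR = 0.472). Rgs11 had 5.19, 0.826 and 0.834 in the inputs and 3.96, 3.66 and 1.49 in the pull-downs (0.43 ± 0.78, FDR = 0.755), and 138 bases (6.88%) of its transcript overlap Arhgdig on the opposite strand. Rgs20, the RZ gene listed for both labels, had changes of 0.45 ± 0.57 (FDR = 0.659) and 0.46 ± 0.25 (FDR = 0.238) and an interaction of 0.04 ± 0.67.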
